A study of Mus musculus with 12 samples.

Results

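*Odf3l2* and *Kcnf1* are 2 of the 22273 genes listed in gastrocnemius by RNA-seq of 3 mouse tissues, and they were chosen by their levels in these libraries, which in muscle were high with corticosterone and low without the glucocorticoid receptor (GR). Their entries were taken by gene symbol from all 12 libraries. Both were above 0 in all 4 gastrocnemius libraries, as were 13543 genes in all. Because the values described here also chose the genes, their levels and changes are given as a description, without a test.

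The libraries came from the gastrocnemius, the liver and the gonadal white adipose tissue (WAT) of male mice. GRf/f mice carry floxed alleles of *Nr3c1*, the GR gene, and no Cre. GRmKO mice carry the same floxed alleles and a Cre transgene under the promoter of *Acta1*, the skeletal actin gene, so that the receptor is deleted in myofibres and not in the other cells of a muscle. Treatment began at 8 weeks of age and lasted 4 weeks, with 1% ethanol in the drinking water of all mice (vehicle) and, in the treated groups, 100 µg/mL corticosterone (CORT), the main glucocorticoid of rodents. Tissue, genotype and treatment gave 12 groups, each with 1 library made from the pooled RNA of 3 mice, so no group had a replicate and no difference could be tested against the spread between mice.

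GR is a nuclear receptor that, once bound by a glucocorticoid, enters the nucleus and acts on genes through DNA elements and other factors. In skeletal muscle it is known for its part in atrophy, insulin resistance and the release of amino acids. *Odf3l2* belongs to a family of microtubule-associated proteins named after the outer dense fibres of the sperm tail, and is known mainly from testis and cilia. *Kcnf1* encodes an electrically silent voltage-gated potassium channel (Kv) subunit, which forms no working channel alone but joins other Kv subunits and alters the resulting channel.

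Both genes lie on the minus strand in the GRCm38 build, and neither overlaps another annotated gene. *Odf3l2* (ENSMUST00000095464) spans chr10:79639526-79645738 with 4 exons, and its only annotated transcript has 1248 bases and 277 codons. *Kcnf1* (ENSMUST00000170580) spans chr12:17172100-17176888 as a single exon of 4789 bases with 505 codons, also its only transcript. None of the 1218 stretches of 31 bases in the *Odf3l2* transcript, nor of the 4759 in that of *Kcnf1*, occurred in another gene among 58797 protein-coding transcripts. Reads were not examined, and transcripts of other kinds, such as those of pseudogenes, were not searched. The first 60 coding bases are shown to identify the transcripts counted, with the start codon in capitals, from chr10:79645634-79645693 for *Odf3l2* and chr12:17176159-17176218 for *Kcnf1*, 5′ to 3′ on the minus strand.

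Odf3l2: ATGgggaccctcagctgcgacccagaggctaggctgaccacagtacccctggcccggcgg

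Kcnf1: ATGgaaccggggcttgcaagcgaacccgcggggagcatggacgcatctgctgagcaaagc

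The 250 bases before the start of *Kcnf1* are shown because its level differed with a receptor that binds DNA (RefSeq, GRCm38.p6, chr12:17176889-17177138, minus strand, 5′ to 3′). No letters are in capitals because no searched motif was found.

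Kcnf1 promoter: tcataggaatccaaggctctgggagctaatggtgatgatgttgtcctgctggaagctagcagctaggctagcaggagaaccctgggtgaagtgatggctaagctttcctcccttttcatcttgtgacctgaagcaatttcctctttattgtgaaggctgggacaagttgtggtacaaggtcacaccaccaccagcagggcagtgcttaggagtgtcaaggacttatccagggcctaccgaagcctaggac

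This window and the 50 bases after the start were searched on both strands for the palindromic glucocorticoid response element, which 0.475% of 32851 RefSeq promoters of the same length hold, and for its half-site AGAACA, held by 6233 of them. They were also searched for the E-box CANNTG, held by 72.3%, for the core of the MEF2 site, held by 3.69%, and for TATAAA, held by 13.6%. *Kcnf1* held none of these letters, which says nothing about more distant sites or about binding.

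Levels are given as CPM, each gene's share of its library's counts scaled to a common total, with a 95% Wilson interval. The libraries held 19394572 to 20940660 expected counts, so that 3 counts, the floor, equal 0.143 to 0.155 CPM. Intervals and floors cover counting error only. Myofibre markers summed to 93737 to 132969 CPM in gastrocnemius and to at most 204 CPM in WAT and 6.64 CPM in liver, and adipocyte and hepatocyte markers were likewise highest in WAT and liver. *Nr3c1* stood at 113 CPM under vehicle and 90.4 CPM under CORT in GRf/f gastrocnemius, and at 46.4 and 35.5 CPM in GRmKO, which is 41.2% (38.1 to 44.4) and 39.2% (35.9 to 42.8) of the GRf/f level. The paper states that exon 3 of *Nr3c1* was floxed. Counts over the whole transcript can include its other exons and RNA of cells other than myofibres, so these percentages do not measure the remaining receptor. In whole muscle, fewer cells of a type and less RNA per cell cannot be told apart.

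*Odf3l2* stood at 44.5 CPM (41.7 to 47.6) in the GRf/f vehicle library of gastrocnemius and at 163 CPM (157 to 169) in the GRf/f CORT library. In GRmKO it stood at 1.89 CPM (1.38 to 2.60) under vehicle and at 1.82 CPM (1.32 to 2.51) under CORT. The GRf/f CORT library was the highest and the GRf/f vehicle library the next, while both GRmKO libraries were low and their intervals overlapped. These levels rest on 884 and 3159 counts in GRf/f and on 38.0 and 37.0 counts in GRmKO, so the GRmKO values are the less precise.

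*Kcnf1* stood at 11.4 CPM (9.96 to 12.9) in GRf/f vehicle gastrocnemius and at 37.3 CPM (34.7 to 40.2) in GRf/f CORT. In GRmKO it stood at 2.95 CPM (2.28 to 3.79) under vehicle and at 0.886 CPM (0.559 to 1.40) under CORT. The order of the GRf/f libraries was that of *Odf3l2*, whereas the 2 GRmKO libraries were apart, the one with CORT being the lowest of the 4. The 4 intervals did not overlap, and the lowest level rested on 18.0 counts.

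**Figure D1:**
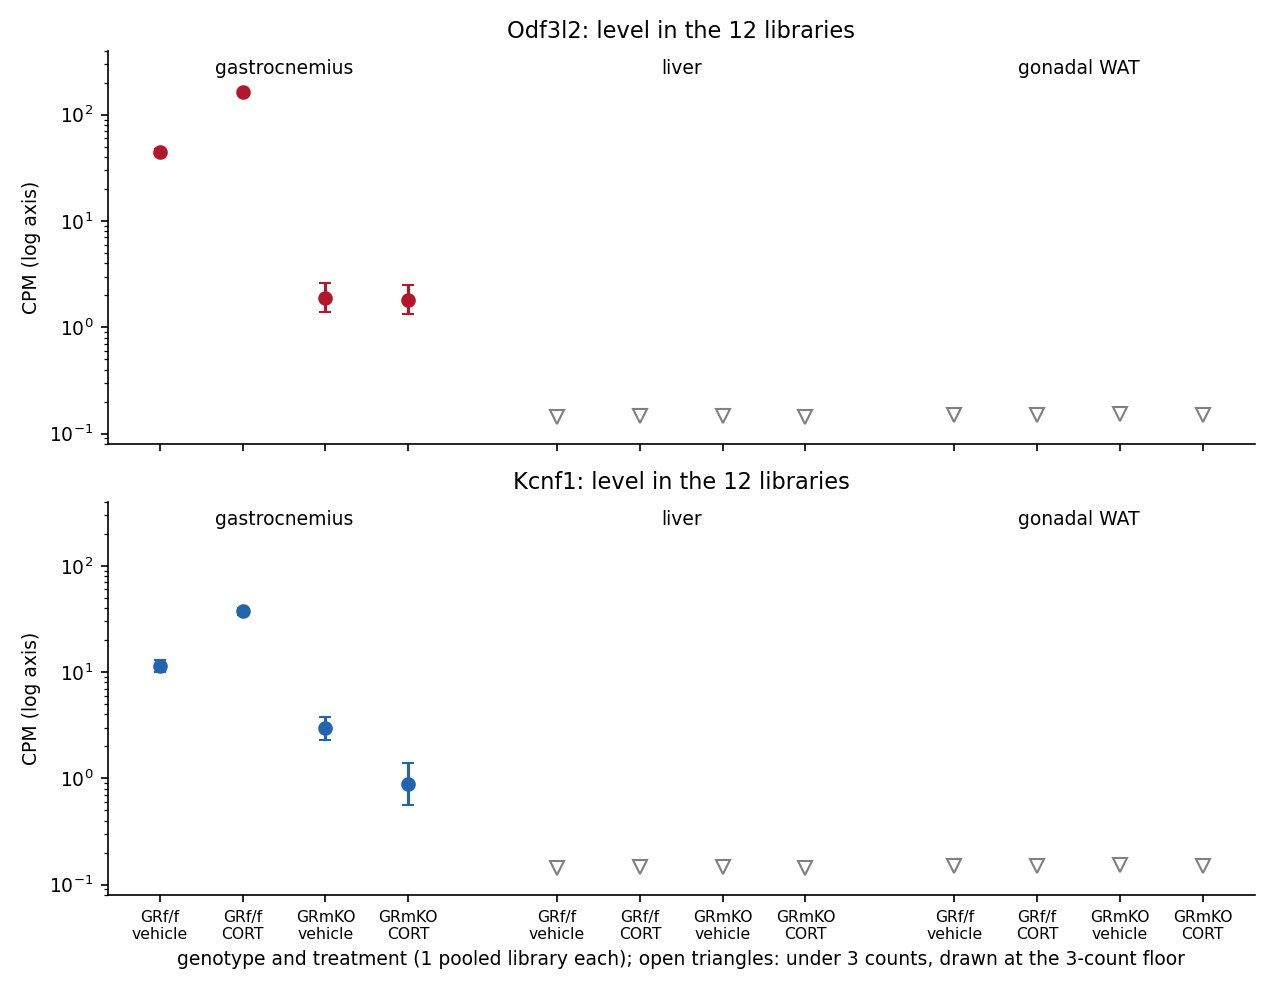
Levels of *Odf3l2* (top) and *Kcnf1* (bottom) in CPM on a log axis in the 12 libraries, each 1 pool of 3 mice, with bars for the 95% Wilson counting interval and open triangles at the floor for libraries under 3 counts. *Odf3l2* reaches 163 CPM in GRf/f CORT gastrocnemius and lies near 1.8 to 1.9 CPM in both GRmKO libraries, and both genes are under the floor in every liver and WAT library.

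Both genes were nearly restricted to muscle among the 3 tissues. *Odf3l2* had 0 counts in all 4 liver and all 4 WAT libraries. *Kcnf1* had 0 counts in the 4 liver libraries and in 3 of the 4 WAT libraries, with 1.00 count in WAT of the GRmKO vehicle group. Levels in gastrocnemius were set against the floor of 3 counts in the other tissue's library of the same genotype and treatment. *Odf3l2* in GRf/f stood at 311 times the liver floor and 296 times the WAT floor under vehicle, and at 1112 and 1081 times under CORT. *Kcnf1* stood at 79.3 and 75.5 times these floors under vehicle and at 255 and 248 times under CORT. Even in GRmKO muscle with CORT, *Odf3l2* stood at 12.6 times the liver floor and *Kcnf1* at 6.13 times. These are not lower bounds of the ratios. The upper Wilson limit of 0 counts, 0.183 CPM in GRf/f vehicle liver, lies above the floor of 0.143 CPM there. Changes with CORT or genotype could not be given in liver and WAT, where neither gene passed the filter on values above 0.

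To compare the genes with each other, levels were divided by transcript length. *Odf3l2* held 35.7 CPM per kb of transcript in GRf/f under vehicle and 130.5 under CORT, 15.1 and 16.7 times the level of *Kcnf1*, which held 2.37 and 7.80 CPM per kb. In GRmKO *Odf3l2* held 1.52 and 1.46 CPM per kb against 0.617 and 0.185 for *Kcnf1*, which is 2.46 times under vehicle and 7.87 times under CORT. Ordered by level per kb among the 13543 genes, *Odf3l2* went from place 1221 from the top to place 364 with CORT in GRf/f and held places 9364 and 9046 in GRmKO. *Kcnf1* went from place 8008 to 4101 in GRf/f and held places 11099 and 12141 in GRmKO.

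With CORT in GRf/f, *Odf3l2* was 3.66-fold higher and *Kcnf1* 3.29-fold higher. The log2 changes, computed after 0.5 CPM was added to both sides as throughout, were 1.86 (1.76 to 1.98) for *Odf3l2* and 1.67 (1.50 to 1.94) for *Kcnf1*, each with the 95% exact binomial interval of the ratio before that addition. Both of the 2 genes passed a 2-fold difference upwards, as did 3.26% of the 13543 genes. A further 4.72% passed it downwards, 7.97% in all. With median-of-ratios scaling factors 51.2% of the genes past 2-fold were higher in place of 40.8%, and both genes remained past 2-fold upwards. *Odf3l2* was the 86th highest change and *Kcnf1* the 114th highest, the latter between *Prg4* at 1.68 and *Fbxo32*, the muscle ubiquitin ligase atrogin-1, at 1.67. The median log2 change of all genes was -0.08.

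With CORT in GRmKO, the genes differed. *Odf3l2* had a log2 change of -0.05 (-0.75 to 0.63), with a CORT level of 96.0% of vehicle, and the sign of so small a value turned under other scalings (-0.06 to 0.07 over the alternatives tried). *Kcnf1* had a log2 change of -1.32 (-2.58 to -0.95), with CORT at 30.0% (16.7 to 51.7) of vehicle, and was the 291st lowest of all genes. A 2-fold difference was passed by 6.53% of genes, 5.02% downwards and 1.51% upwards, so *Kcnf1* belonged to the more common direction. With TMM factors 34.9% of the genes past 2-fold were higher in place of 23.2%, and the median of all genes moved from -0.10 to 0.04 while the *Kcnf1* value stayed past 2-fold downwards. The CORT change in GRmKO less that in GRf/f was -1.90 for *Odf3l2* and -2.99 for *Kcnf1*, a difference that 1 library a group leaves untested.

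Under vehicle, *Odf3l2* in GRmKO was at 4.25% (2.99 to 5.88) of its GRf/f level, a log2 change of -4.23 (-5.07 to -4.09). *Kcnf1* was at 26.0% (19.1 to 34.7), a log2 change of -1.78 (-2.39 to -1.53). Both passed a 2-fold difference downwards, as did 3.18% of all genes, and 4.59% passed it upwards, 7.77% in all. The change of *Odf3l2* was the 2nd lowest value of all genes, after *Gm8797* at -4.42 and before *Arrdc2* at -4.13, and that of *Kcnf1* the 67th lowest.

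Under CORT the genotypes were further apart. *Odf3l2* in GRmKO was at 1.12% (0.784 to 1.54) of its GRf/f level, 89.6-fold lower, with a log2 change of -6.14 (-6.99 to -6.02). *Kcnf1* was at 2.37% (1.40 to 3.77), 42.2-fold lower, with a log2 change of -4.77 (-6.16 to -4.73). These were the lowest and the 2nd lowest of the 13543 changes. Both passed a 2-fold difference downwards, as did 5.31% of all genes, and 4.40% passed it upwards, 9.71% in all. Without scaling the balance turned, with 52.8% of the genes past 2-fold higher in place of 45.3%. The 4 comparisons share libraries in pairs, so their values for a gene are not independent of each other: the low GRmKO levels and the high GRf/f CORT level enter more than 1 of them.

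**Figure D2:**
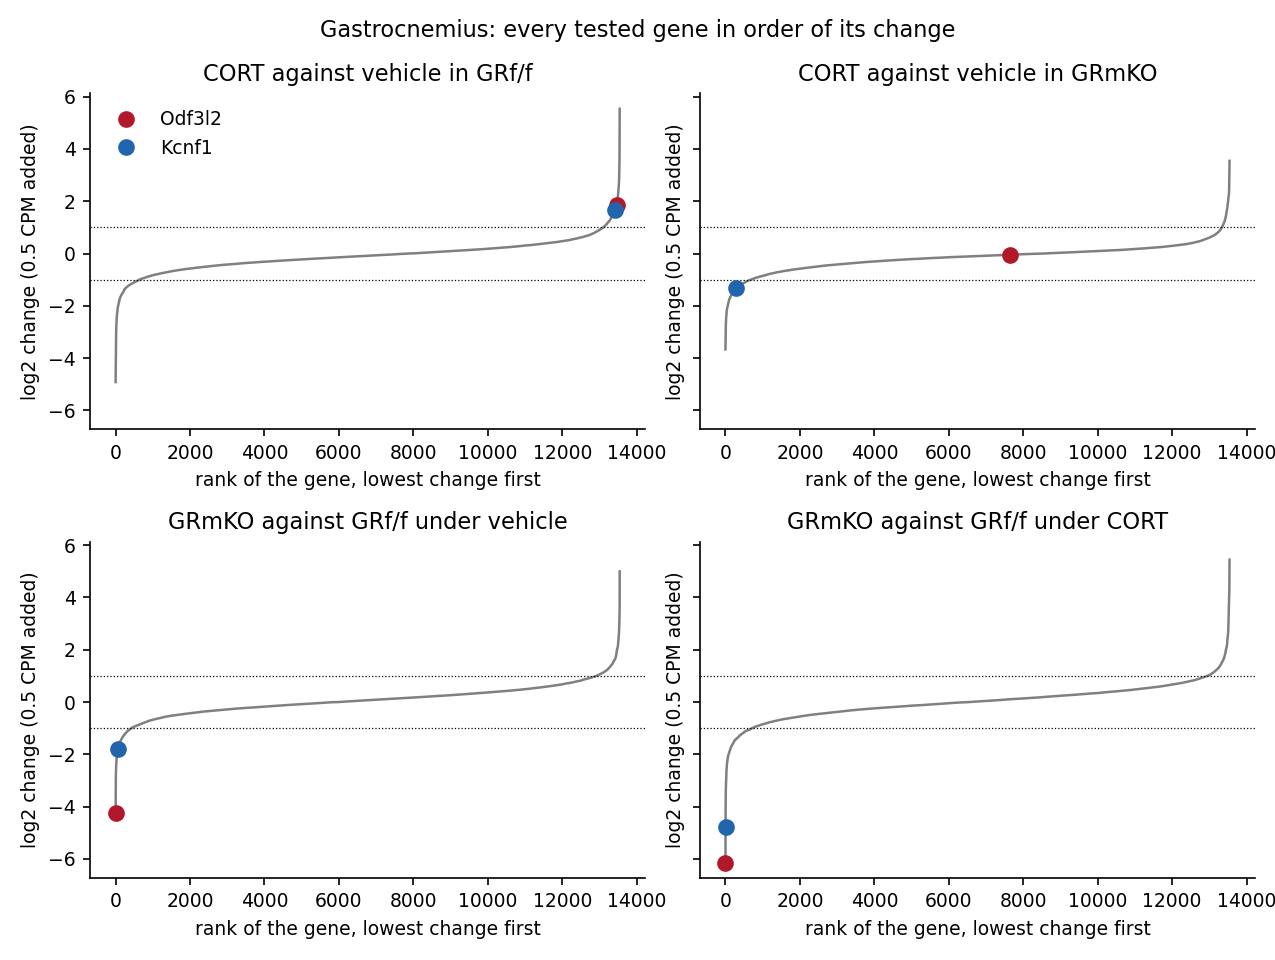
Log2 change of each of the 13543 gastrocnemius genes (0.5 CPM added) against its rank from the lowest, in 4 comparisons, with *Odf3l2* in red, *Kcnf1* in blue and dotted lines at 2-fold. Both genes lie near the top with CORT in GRf/f and at the bottom in GRmKO against GRf/f under CORT, and with CORT in GRmKO *Odf3l2* lies in the middle of the curve and *Kcnf1* near its lower end.

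The changes were also set beside those of genes of like transcript length. Genes within 1.25-fold of the length of *Odf3l2* (1517 genes) had median log2 changes in GRmKO of 0.29 under vehicle and 0.32 under CORT, opposite in sign to that of *Odf3l2*. Genes of the length of *Kcnf1* (2975 genes) had medians of -0.05 and -0.13. Relative to these medians the log2 change of *Odf3l2* was -4.52 under vehicle and -6.46 under CORT, and that of *Kcnf1* was -1.73 and -4.64, so both changes were as large or nearly so among genes of like length.

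Some markers of other cells also moved with genotype in gastrocnemius. Of all genes, 4.59% were at least 2-fold higher and 3.18% lower in GRmKO under vehicle, and 4.40% and 5.31% under CORT. Of the 10 hepatocyte markers above 0 in all 4 libraries, 8 were at least 2-fold higher in GRmKO under each treatment, and the 11 listed ones summed to 60.6 and 258 CPM in GRf/f and to 155 and 451 CPM in GRmKO under vehicle and CORT. Adipocyte markers summed to 3131 and 2626 CPM in GRf/f and to 5252 and 5025 CPM in GRmKO, but *Car3*, a carbonic anhydrase gene, held most of that, and the other 9 summed to 413 and 999 CPM in GRf/f and to 453 and 688 CPM in GRmKO. Of the 9 adipocyte markers above 0 in all 4 libraries, 0 passed 2-fold between genotypes under vehicle, and 1 was higher and 2 lower in GRmKO under CORT. Immune cell markers summed to 235 and 103 CPM against 698 and 161 CPM. Endothelial and fibroblast markers summed to 1657 and 695 CPM in GRf/f and to 2360 and 862 CPM in GRmKO, and satellite cell and denervation genes to 94.9 and 116 CPM against 276 and 167 CPM. The part of these cells in the low GRmKO levels of *Odf3l2* and *Kcnf1* was not tested. *Odf3l2* and *Kcnf1* were under 3 counts in every liver and WAT library, so neither tissue's RNA holds a measured amount of them. Myofibre markers summed to 132969 and 118637 CPM in GRf/f and to 93737 and 113907 CPM in GRmKO. Of the 12, 2 were at least 2-fold lower in GRmKO under vehicle, *Ttn*, which encodes titin, at -1.26 and the fast myosin gene *Myh4* at -1.22, and the slow myosin gene *Myh7* was higher at 1.13, beside -1.78 for *Kcnf1* and -4.23 for *Odf3l2*. Under CORT 1 was lower, *Ttn* at -1.73, and 0 were higher.

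Most genes of the sperm tail and cilia did not accompany *Odf3l2* in muscle. Of 16 fixed sperm and cilium genes, 11 were under the floor in all 4 gastrocnemius libraries, among them the protamine genes *Prm1* and *Prm2* and the fibrous sheath gene *Akap4*, and the 16 together summed to 3.33 to 4.42 CPM. The one that passed 2-fold between genotypes under CORT was *Rsph1*, a radial spoke gene, higher in GRmKO at 1.10. *Ccdc39* ran in the direction of *Odf3l2*, with 0.727 and 1.27 CPM in GRf/f and 0.182 and 0.432 CPM in GRmKO. Its log2 changes, within 2-fold after 0.5 CPM was added, were 0.53 with CORT in GRf/f and -0.85 and -0.92 in GRmKO under vehicle and CORT. Of the 7 other outer dense fibre genes listed, *Odf3*, *Odf1* and *Odf4* were under the floor in all 4 libraries. *Odf3b* and *Odf3l1*, of the same family as *Odf3l2*, reached at most 0.346 and 0.399 CPM. *Odf2l* stood at 3.46 and 1.05 CPM in GRf/f and at 0 and 1.41 CPM in GRmKO, so it was lower in GRmKO under vehicle and not under CORT. *Odf2*, which also serves the centrosome, was the only one above 0 in all 4 libraries, at 9.46 and 8.64 CPM in GRf/f and 11.6 and 6.50 CPM in GRmKO, all within 2-fold. Neuron and Schwann cell markers, of cells in which Kv subunits are also known, summed to 217 to 410 CPM, with the neuronal *Syt1*, *Snap25* and *Nefl* under the floor in all 4 libraries.

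None of the other silent Kv subunits that were compared passed every 2-fold difference of *Kcnf1*. Of 9, only 4 were above 0 in all 4 gastrocnemius libraries, none of these passed 2-fold with CORT in either genotype or in GRmKO under vehicle, and 2 were lower in GRmKO under CORT, with a median of -0.33 over the 4 beside 0.02 for all genes. *Kcng4* held 9.77 and 9.63 CPM per kb in GRf/f and 5.56 and 4.68 in GRmKO, with a log2 change in CPM of -1.02 under CORT. *Kcnv2*, with at most 1.18 CPM, had -1.49. *Kcng3*, *Kcns2* and *Kcnv1* were under the floor throughout. Of 29 other potassium channel genes above 0 in all 4 libraries, 4 were lower and 0 higher with CORT in GRf/f, 1 was lower with CORT in GRmKO, and 1 was higher and 3 lower in GRmKO under vehicle. In GRmKO under CORT 1 of the 29 was higher, *Kcnh2* at 1.10, and 0 were lower, the lowest change being -0.89. Of all genes, 3.26% were higher and 4.72% lower with CORT in GRf/f, and 4.40% higher and 5.31% lower in GRmKO under CORT. Counts in so short a list cannot be told from these shares.

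**Figure D3:**
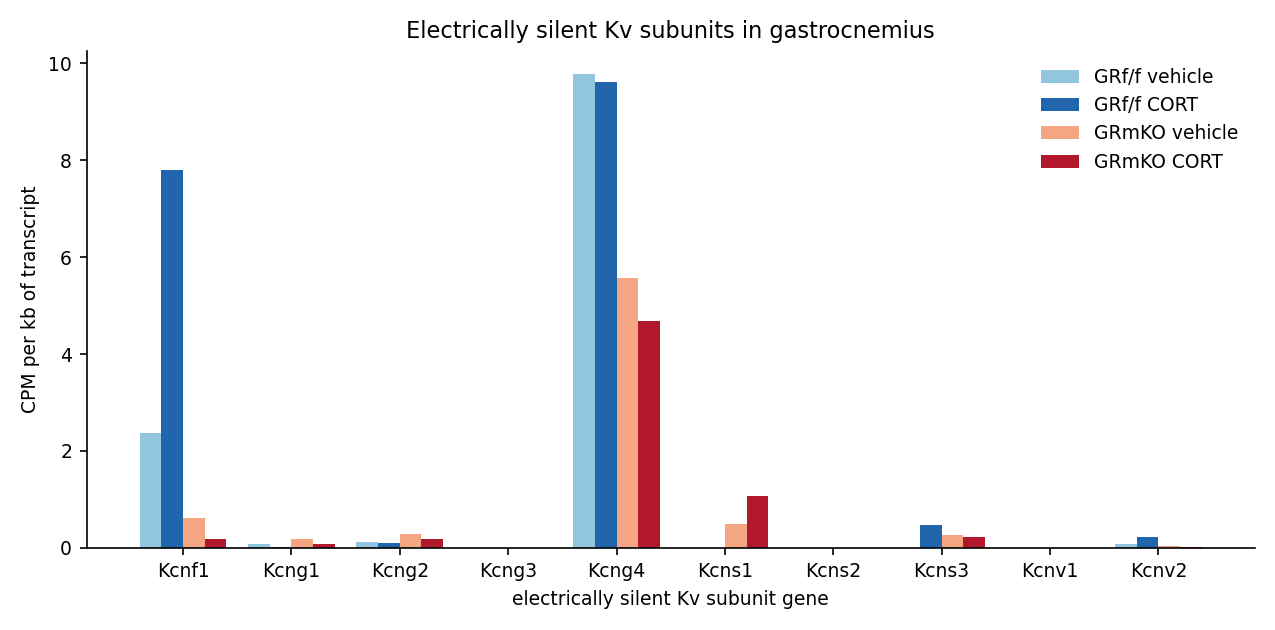
CPM per kb of transcript of the 10 electrically silent Kv subunits in the 4 gastrocnemius libraries, 1 bar per library. *Kcnf1* stands at 7.80 in GRf/f with CORT against 2.37 under vehicle, whereas *Kcng4* stands near 9.7 in both GRf/f libraries and near 5 in both GRmKO libraries.

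Of 30 genes listed as GR targets from general knowledge, all were above 0 in the 4 libraries. With CORT in GRf/f 12 were 2-fold higher and 5 lower, with a median log2 change of 0.67, and with CORT in GRmKO 3 were higher and 2 lower, with a median of 0.03. In GRmKO against GRf/f 1 was higher and 4 lower under vehicle, with a median of -0.25. Under CORT 1 was higher and 11 lower, with a median of -0.70. The medians of all genes were -0.08, -0.10, 0.07 and 0.02 in the same order. The shares of all genes past 2-fold were 3.26%, 1.51%, 4.59% and 4.40% upwards and 4.72%, 5.02%, 3.18% and 5.31% downwards. The 6 lowest under CORT were *Fkbp5*, which encodes a co-chaperone of steroid receptors, at -4.06, *Lcn2*, which encodes lipocalin 2, at -4.05, the phosphoinositide 3-kinase subunit gene *Pik3r1* at -3.32, the transcription factor genes *Zbtb16* at -2.33 and *Foxo1* at -2.12, and the cell cycle inhibitor gene *Cdkn1a* at -2.07. All 11 lay above the values of *Odf3l2* and *Kcnf1*, as every other gene did, since these were the lowest changes of all genes. The single higher one was the kinase gene *Sgk1* at 1.52.

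Under vehicle the targets parted from the members and among themselves. *Pik3r1* was at 31.9 CPM in GRf/f and 32.5 CPM in GRmKO, *Cdkn1a* at 37.3 and 37.5 CPM, and *Lcn2* at 1.01 and 1.14 CPM, so these 3 differed between genotypes by 2-fold only with CORT. *Odf3l2* and *Kcnf1* were already lower in GRmKO under vehicle, as were *Fkbp5*, at 61.9 and 30.0 CPM, *Zbtb16*, at 78.6 and 30.8 CPM, and *Foxo1*, at 87.8 and 37.0 CPM. The clock gene *Per1* was the lowest of the targets under vehicle, at 80.6 and 19.7 CPM with a log2 change of -2.01, but it stood at 33.1 and 29.2 CPM under CORT, within 2-fold. The one higher under vehicle was *Depp1* at 1.28.

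All 3 differences together, 2-fold higher with CORT in GRf/f and 2-fold lower in GRmKO under both treatments, were met by 23 genes, or 0.170% of the 13543. The 3 comparisons share libraries, so this number describes 4 libraries and measures no overlap. Beside *Odf3l2* and *Kcnf1*, low changes in GRmKO under CORT were those of *Fkbp5* at -4.06, the glucose transporter gene *Slc2a3* at -3.61, *Prima1*, whose product anchors acetylcholinesterase, at -3.32, and the GABA receptor subunit gene *Gabrr2* at -3.15. Further ones were the tubulin-modifying enzyme gene *Ttll7* at -2.66, the glycogen-targeting phosphatase subunit gene *Ppp1r3c* at -2.66 and the heat shock gene *Hspa1b* at -2.62, whose reads can be split with the near-identical *Hspa1a*. With CORT in GRmKO 16 of the 23 stayed within 2-fold, *Odf3l2* among them, 6 were higher, and *Kcnf1* was the only one lower. In 3 of the 23, *Odf3l2*, *Kcnf1* and *Ucn2*, every liver and WAT library held under 3 counts.

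The genes whose levels ran most like those of *Odf3l2* over the 4 gastrocnemius libraries were found by the Euclidean distance between log2(CPM + 0.5) values, each less the gene's own mean, among 10562 genes, limited to those averaging 50 counts or more. *Kcnf1* was the 2nd nearest at 2.12, before *Slc2a3* at 2.42, the splicing-related gene *Pnisr* at 2.46 and the transporter gene *Slc15a5* at 2.64, the median distance of all genes being 5.44.

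For *Kcnf1* the nearest was *Slc15a5* at 0.755, then *Tmem52* at 0.993, *Fkbp5* at 1.10, *Slc2a3* at 1.22 and *Pnisr* at 1.25, against a median of 3.68, and *Odf3l2* was the 58th at 2.12. *Slc15a5* stood at 5.96 and 12.3 CPM in GRf/f and at 1.50 and 0.446 CPM in GRmKO, with a log2 change with CORT in GRmKO of -1.08, in the direction of *Kcnf1*. *Slc2a3*, *Pnisr* and *Slc15a5* stood in both groups of 5. With 4 libraries these distances are a description.

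**Figure D4:**
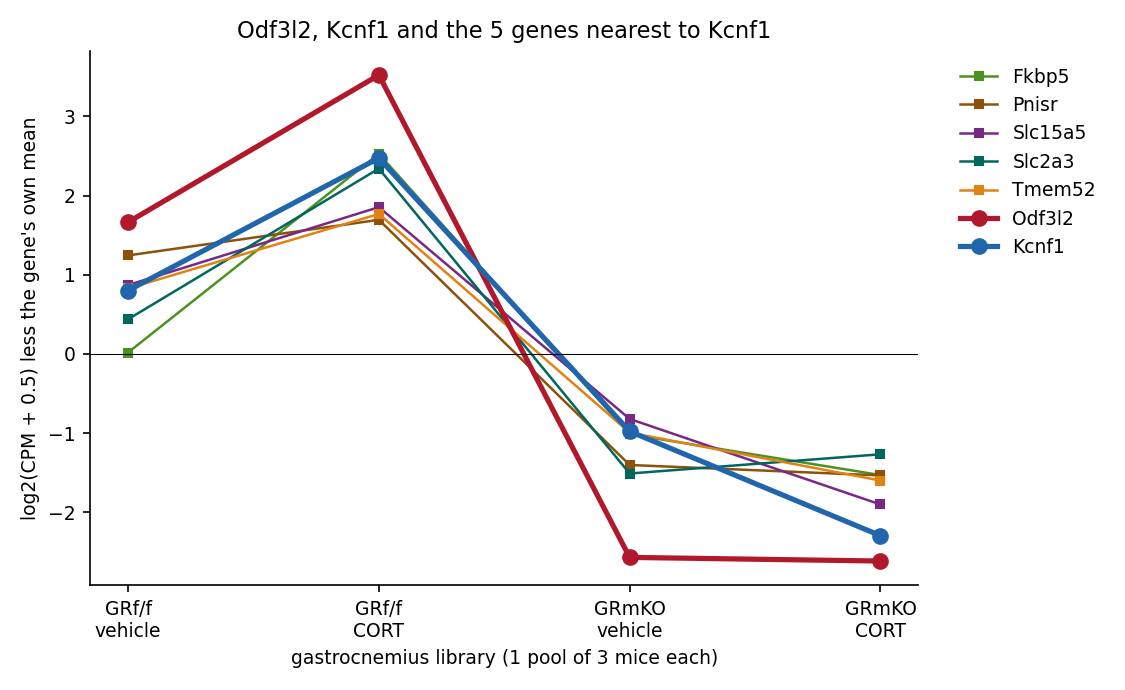
Log2(CPM + 0.5) less each gene's own mean in the 4 gastrocnemius libraries for *Odf3l2*, *Kcnf1* and the 5 genes nearest to *Kcnf1*; lines join libraries of a gene and carry no order. *Odf3l2* spans the widest range, its GRmKO values are level, and *Kcnf1* and *Slc15a5* drop from GRmKO vehicle to GRmKO CORT.

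Genes beside the 2 loci were read to see how far along the chromosome the differences reached. *Shc2*, an adaptor protein gene on the same strand, lies 1607 bases from *Odf3l2* at chr10:79618051-79637918. It stood at 8.40 and 7.77 CPM in GRf/f and at 2.95 and 1.67 CPM in GRmKO, with log2 changes in GRmKO of -1.37 under vehicle and -1.93 under CORT, but of only -0.11 with CORT in GRf/f. It was thus lower in GRmKO, as *Odf3l2* was, and within 2-fold with CORT in GRf/f. *Cdc34*, a ubiquitin-conjugating enzyme gene, was lower in GRmKO under vehicle at -1.11 and not under CORT at 0.01, *Tpgs1* stayed within 2-fold, *Theg* and *Madcam1* were at 0 in all 4 gastrocnemius libraries, and *C2cd4c* reached at most 0.616 CPM.

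*Kcnf1* stands apart on its chromosome, its nearest listed neighbour *Pdia6*, a disulphide isomerase gene, lying 89656 bases away. *Pdia6* stood at 41.6 and 46.8 CPM in GRf/f and at 40.5 and 41.9 CPM in GRmKO. *Rock2*, *Pqlc3*, *2410004P03Rik* and *Nol10* also stayed within 2-fold in GRmKO under both treatments, and *Atp6v1c2* was above 0 in only 1 library, at 0.251 CPM.

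**Figure D5:**
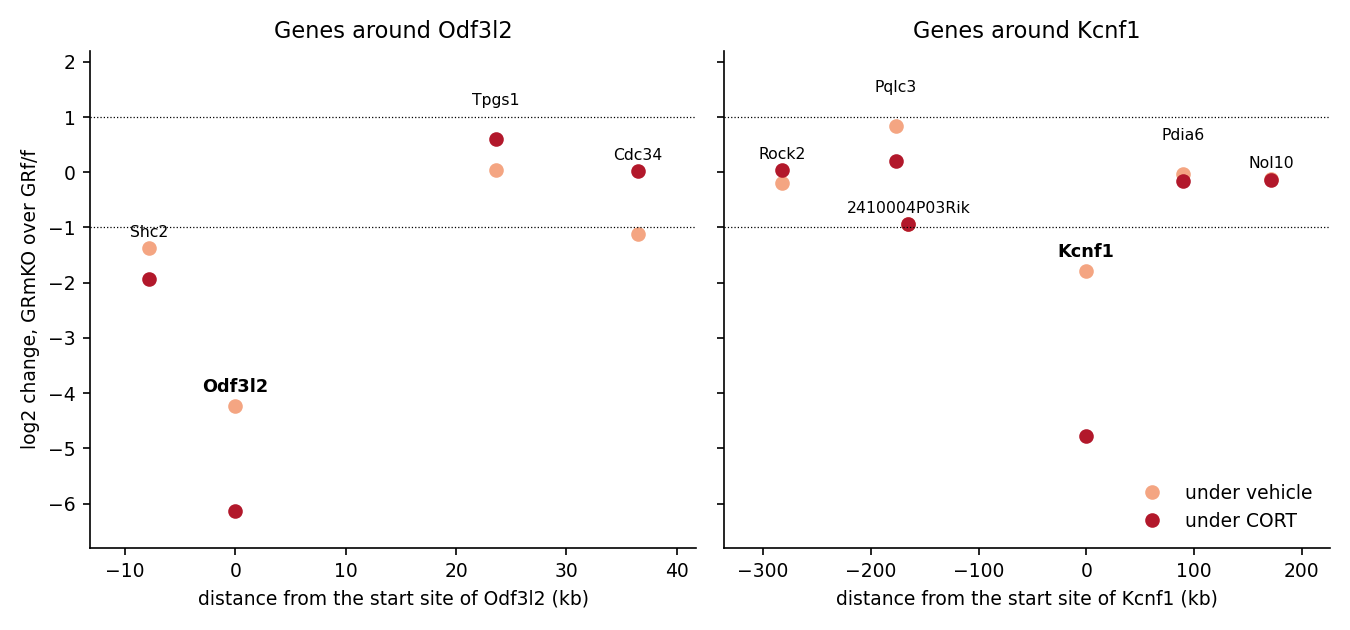
Log2 change in GRmKO against GRf/f gastrocnemius of *Odf3l2* (left), *Kcnf1* (right) and their neighbours above 0 in all 4 libraries against the distance between start sites in kb, under vehicle (light) and CORT (dark), with dotted lines at 2-fold. *Shc2* beside *Odf3l2* lies below the lower line under both treatments, and no neighbour of *Kcnf1* shown does.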

How the data were processed

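RNA was measured in 3 tissues by paired reads of 100 bases. Per the labels and the study's methods, the authors quantified reads with Salmon 1.2.1 on GENCODE protein-coding transcripts (mm10, equal to GRCm38), imported them into R 3.5.0 as length-scaled values and kept the entry with the largest total for each symbol. The deposited values are expected counts, without scaling between libraries. It was not settled whether an entry sums all transcripts of a gene, which does not touch *Odf3l2* or *Kcnf1*, each with 1 annotated transcript. RNA quality limits were set by the authors.

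CPM, log2 changes after adding 0.5 CPM, 95% Wilson and exact (Clopper-Pearson) intervals on rounded counts and all ranks were computed in Python 3.11.15 (numpy 2.4.6, pandas 2.3.3, scipy 1.17.1), and TMM factors with edgeR 4.0.16 in R 4.3.3. A gene was compared in a tissue where none of its 4 values was 0, and a call was a difference of at least 2-fold. The authors' NOISeq was not run because it rests on simulated samples. With 1 library a group no p-value was computed. The script for fold calls was checked on simulated data. Gene positions came from GENCODE M21 (GRCm38) and the promoter from RefSeq.

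The members and all gene lists were chosen with earlier results of these data known. The genes named were the members, *Nr3c1*, the 5 of nearest pattern, 3 neighbours on each side, genes next in rank, list members past 2-fold in GRmKO under CORT (at most 6 a list, fewer where a list was only summed) and the 10 lowest changes among genes sharing the 3 differences. Other genes named, and *Odf3b*, *Odf3l1*, *Odf2* and the list genes under the floor, were chosen after their values were seen. Some genes that this rule names are not reported here.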

Additional observations from a re-analysis of the deposited data

Results flagged for a closer look

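*Kcnf1* was set apart because its change with CORT had opposite signs in the 2 genotypes. It stood at 11.4 CPM under vehicle and 37.3 CPM under CORT in GRf/f gastrocnemius, a log2 change of 1.67, and at 2.95 and 0.886 CPM in GRmKO, a log2 change of -1.32 (-2.58 to -0.95, counting error only). The difference was not tested, since each group held 1 library, and the lower GRmKO value rests on 18.0 counts. Over the alternatives tried the GRmKO change ran from -1.63 to -1.07 and the GRf/f change from 1.63 to 1.78.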

How the results depend on the processing

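No paired analysis was possible because each group held 1 library and the labels give no replicate numbers; for the same reason no replicate could be left out. The members' log2 changes were recomputed under 48 alternatives (other scalings, other CPM added, and genes of like length, the last chosen after seeing the data); a filter on other genes does not alter them. None of the changes past 2-fold turned its direction. Some values left the counting interval of their ratio, which is computed without added CPM. Relative to genes of like length these were *Odf3l2* with CORT in GRf/f, 1.98 in place of 1.86, and *Kcnf1* in GRmKO under CORT, -4.64 in place of -4.77, which was also -4.71 without scaling. With 1 CPM added they were *Kcnf1* in GRmKO under CORT, -4.35, and *Odf3l2* in GRmKO, -3.98 under vehicle and -5.86 under CORT. Under CORT in GRmKO against GRf/f, *Odf3l2* ran from -6.46 to -5.86 and *Kcnf1* from -5.25 to -4.35. Under vehicle they ran from -4.52 to -3.98 and from -1.91 to -1.64.

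Counts of all genes past 2-fold were recomputed under 103 alternatives, and 69 stayed within 1.5 times the original. With 0.1 CPM added in place of 0.5, gastrocnemius gave 1672 genes for CORT in GRf/f (1080 originally), 1445 for CORT in GRmKO (885), 1656 for GRmKO under vehicle (1052) and 2010 for GRmKO under CORT (1315). At 4-fold these were 135, 101, 112 and 182, and without the filter CORT in GRmKO gave 1401 and GRmKO under vehicle 1621. In liver, 0.1 CPM gave 1184 for CORT in GRmKO (701), 670 for GRmKO under vehicle (287) and 1152 for GRmKO under CORT (589), and no filter gave 1143, 657 and 982. With 1 CPM the last 2 were 183 and 392, and at 4-fold the 4 liver counts were 251 (1451), 92, 20 and 42. In WAT, 0.1 CPM gave 1944 for CORT in GRmKO (1294), 715 for GRmKO under vehicle (316) and 815 for GRmKO under CORT (372), no filter gave 708 and 767 for the last 2, and 1 CPM gave 207 and 239. At 4-fold the WAT counts were 325 (1928), 125, 35 and 23. With 0.1 CPM 35 genes shared the 3 differences in place of 23. Fewer or more low genes pass as the added CPM and the filter change, by construction. Depth limits the GRmKO levels, which rest on 18.0 to 59.3 counts.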
